A study of Mus musculus with 6 samples.

Results

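The transcripts described here encode the proteins of the mitochondrial ribosome. Their 76 genes were all those whose array symbol, or current symbol through the Entrez ID, begins with Mrpl (large subunit, 48 genes) or Mrps (small subunit, 28 genes) followed by a number, out of 19057 genes named on the array. The choice used names alone and no measured value, and the array symbol and the current symbol were identical for every one of them. They were read by 132 probes. Of the 76 genes, 71 had a probe above background on 3 or more of the 6 arrays and were tested, 44 of the large and 27 of the small subunit, among 9561 genes tested in all.

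The RNA came from bone marrow of female C57BL/6 mice aged 7 weeks, with no treatment or genetic alteration named in the labels. One sorted population was the CCR9+ plasmacytoid dendritic cell (pDC), a cell known for its large output of type I interferon, and CCR9 is a chemokine receptor found on the more mature of these cells. The other was a CCR9- cell that the labels call a pDC-like dendritic cell precursor. Each population was hybridised to 3 whole-genome bead arrays, from separate isolations according to the design text. The labels do not say whether animals were pooled for an isolation.

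Mitochondria keep a small genome of their own and read it with their own ribosomes. These ribosomes make only core subunits of the respiratory chain and of ATP synthase, while all of their own proteins are encoded in the nucleus, made in the cytosol and imported. Some of these proteins descend from bacterial ribosomal proteins and others were added after the bacterial ancestor, so they are grouped below by subunit and by descent. The large subunit forms peptide bonds and holds the exit tunnel, and the small subunit holds the decoding site.

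The arrays detected between 15254 and 16905 of 45281 probes above background, the fewest on CCR9+ pDC replicate 3, whose mean correlation with its own group was also the lowest of the 6 at 0.976. The Ccr9 probe was above background on no array, so it does not check the labels. The other 9 of the 10 pDC marker genes on the array were above background on every array. The summed signals of the pDC markers were 97739 to 111924 in CCR9+ pDCs and 85528 to 90009 in precursors. Of the 9 tested, 1 was called higher and 3 lower in precursors (median log2 fold change -0.31). Macrophage markers were lower in precursors for 14 of 14 genes tested (median log2 fold change -4.90), and their summed signal was 50479 to 74425 in CCR9+ pDCs against 2308 to 2596 in precursors, with no marker at background on all arrays. Neutrophil markers were lower for 11 of 11 and basophil or mast cell markers for 8 of 8, with summed signals of 102748 to 116930 against 51503 to 60491 and of 5765 to 7600 against 1977 to 2577, and Mmp8 above background on no array. The erythroid, B lineage and T or NK lists had 2 of 5, 3 of 7 and 1 of 2 lower and none higher, and conventional dendritic cell markers 2 of 6 higher and 3 lower. Proliferation markers were higher in precursors for 15 of 15 tested (median 2.09), with sums of 10365 to 11164 against 43736 to 46422 and Ccnb2, Ccna2 and Bub1 above background on no array. The part of any of these differences in the results below was not tested. In bulk RNA, a larger share of cells that express a transcript and more of it in each cell cannot be told apart.

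Large subunit transcripts were called higher in the precursors far more often than lower. Of 44 genes, 15 were called higher (34.1%), at an adjusted p below 0.05 from limma with Benjamini-Hochberg adjustment over all genes tested, and Mrpl24 alone was called lower. The background in the same fit was 18.2% of all genes higher and 17.6% lower. The median log2 fold change, precursor minus CCR9+ pDC, was 0.25 over the 44 genes (quartiles 0.07 and 0.39) against 0.02 over all genes, and 38 of the 44 had a value above 0. The differences ran from -0.35 to 0.83 on the log2 scale. Arrays scaled to a common median instead of quantile normalized gave 16 higher and none lower, but this scaling also moved the median of all genes to 0.19 and the share of all calls that were higher from 50.8% to 68.3%; relative to all genes the large subunit median was then 0.31. In 22 of the 44 every precursor array lay above every CCR9+ pDC array and in 3 every one lay below, where 26.7% and 24.2% of all genes did so.

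**Figure D1:**
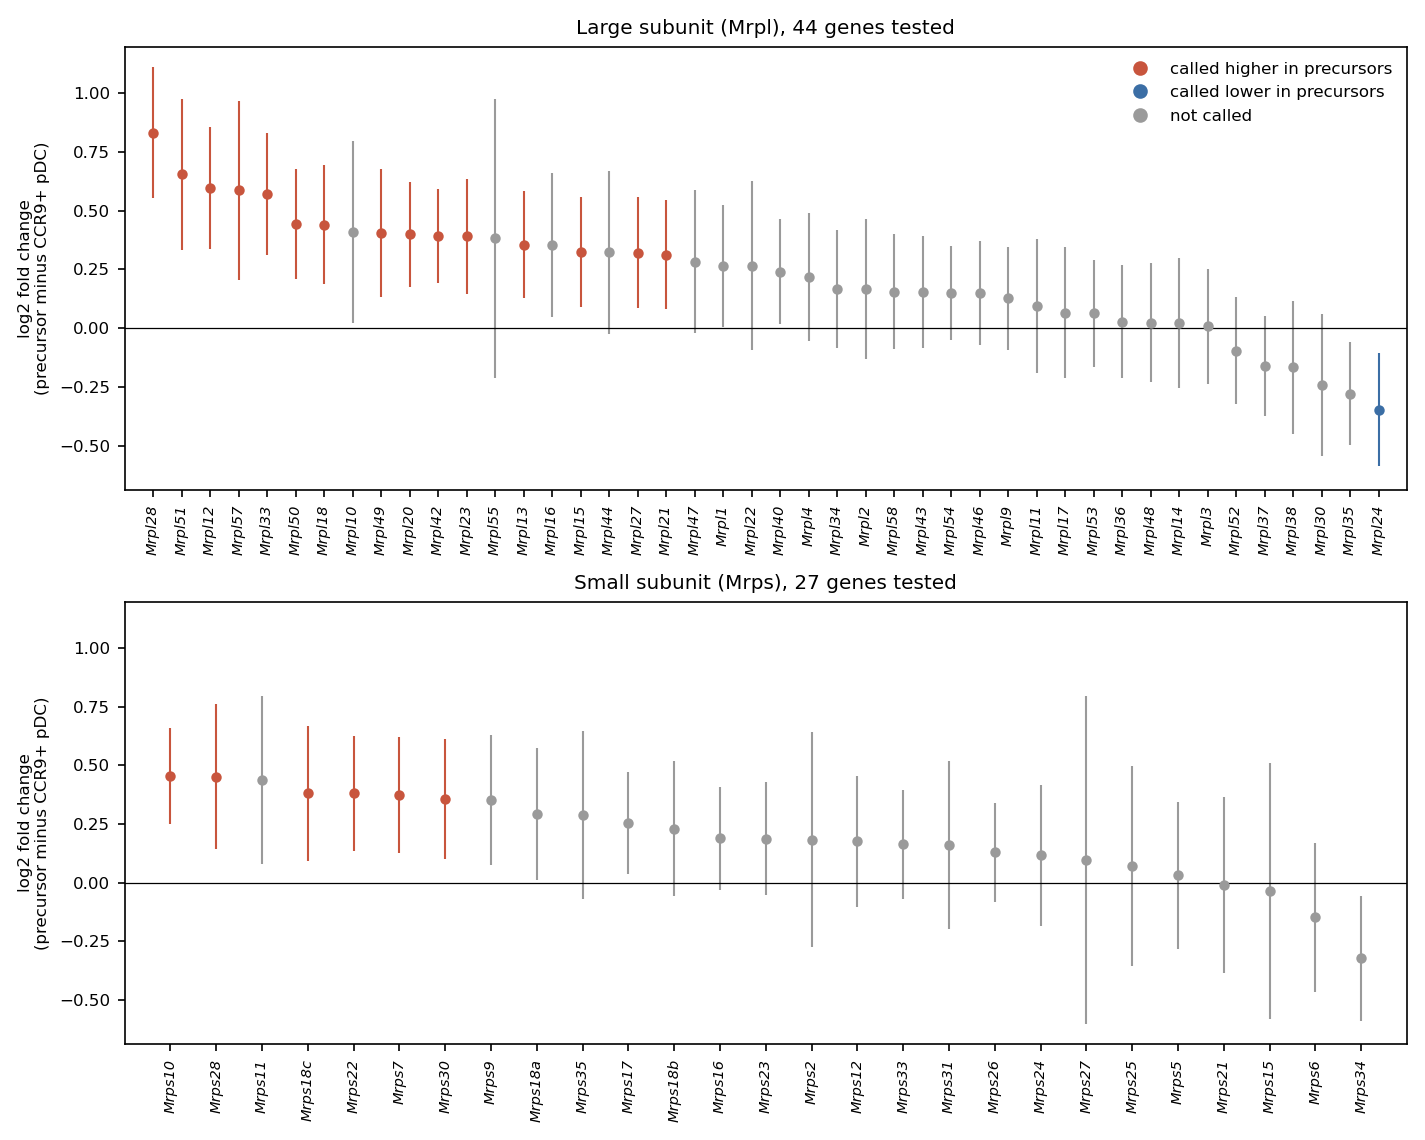
Log2 fold change (precursor minus CCR9+ pDC, vertical axis) of every tested gene of the large subunit (top, 44 genes) and the small subunit (bottom, 27 genes), ordered by value, with 95% confidence intervals from limma and n = 3 arrays a group. Genes called higher in precursors are red, the 1 called lower is blue and the others are grey; most points in both panels lie above 0.

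Mrpl28, a homologue of bacterial L28, had the largest difference of the 71. Its log2 signals were 11.47, 11.33 and 11.12 in CCR9+ pDCs and 12.17, 12.19 and 12.05 in precursors. Every precursor array stood above every CCR9+ pDC array. Group means went from 11.30 ± 0.17 to 12.14 ± 0.074 (SD, n = 3), a log2 fold change of 0.83 ± 0.12 (SE) or 1.78-fold, with an adjusted p of 0.00191 in limma. For the other genes, the value in parentheses after the array values is likewise the log2 fold change, with its SE after ± or its 95% interval. Mrpl12 is the L7/L12 stalk protein, which recruits translation factors and in human cells also binds the mitochondrial RNA polymerase. Its values were 9.71, 9.83 and 9.67 in CCR9+ pDCs and 10.47, 10.19 and 10.34 in precursors, again without overlap. That difference was 0.60 ± 0.11, 1.51-fold (adjusted p = 0.0061, limma).

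Mrpl33 encodes a small homologue of bacterial L33. Its log2 signals were 11.90, 11.63 and 11.68 in CCR9+ pDCs and 12.39, 12.29 and 12.25 in precursors. The precursor arrays lay closer together than the CCR9+ pDC arrays and all above them (0.57 ± 0.11, adjusted p = 0.00717 in limma). Mrpl51, a subunit with no bacterial counterpart, read 6.50, 6.47 and 6.51 in CCR9+ pDCs and 7.14, 6.91 and 7.39 in precursors. Here the 3 CCR9+ pDC arrays nearly coincided and the precursor arrays spread over 0.48 log2 units above them (0.66 ± 0.13, 1.58-fold, adjusted p = 0.00965). Mrpl57, another of the subunits particular to mitochondria, read 7.07, 6.92 and 7.50 in CCR9+ pDCs and 7.71, 7.83 and 7.72 in precursors. CCR9+ pDC replicate 3 was the highest of its group and still below every precursor array (0.59 ± 0.16, adjusted p = 0.0287).

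Mrpl50, also particular to mitochondria, had log2 signals of 9.64, 9.75 and 9.63 in CCR9+ pDCs and 10.21, 9.998 and 10.14 in precursors, with no overlap (0.44 ± 0.098, adjusted p = 0.0134). The L18 homologue Mrpl18 read 7.94, 7.88 and 8.16 in CCR9+ pDCs and 8.47, 8.46 and 8.38 in precursors. As for Mrpl57, CCR9+ pDC replicate 3 was the nearest to the precursors (0.44 ± 0.11, adjusted p = 0.0184). Mrpl49, a mitochondrial addition to the large subunit, read 10.19, 9.91 and 10.20 in CCR9+ pDCs and 10.58, 10.50 and 10.43 in precursors on its brightest probe (0.40 ± 0.11, adjusted p = 0.0324). Its groups were separated by 0.23 log2 units between the nearest arrays. Mrpl42, likewise without a bacterial homologue, read 9.38, 9.30 and 9.32 in CCR9+ pDCs and 9.72, 9.75 and 9.70 in precursors. Both groups were tight, and its 0.39 ± 0.083 had an adjusted p of 0.0111 in limma.

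Mrpl23, which lies beside the end of the exit tunnel in bacterial ribosomes, was among the 3 brightest large subunit probes with Mrpl33 and Mrpl28, which says nothing of transcript amounts between genes. It read 11.87, 11.66 and 11.68 in CCR9+ pDCs and 12.22, 12.09 and 12.08 in precursors, without overlap (0.39 ± 0.10, adjusted p = 0.0251). The remaining called genes were Mrpl20, Mrpl13, Mrpl15, Mrpl27 and Mrpl21, all homologues of bacterial proteins of the same number. Their log2 fold changes ran from 0.31 for Mrpl21 to 0.40 for Mrpl20. Mrpl27 in bacteria reaches towards the site of peptide bond formation, and its value was 0.32 ± 0.099 (adjusted p = 0.0447).

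Mrpl24, whose bacterial homologue L24 starts large subunit assembly, was the exception. Its log2 signals were 10.03, 10.04 and 10.25 in CCR9+ pDCs and 9.75, 9.71 and 9.81 in precursors. All precursor arrays lay below all CCR9+ pDC arrays, with a log2 fold change of -0.35 ± 0.10 and an adjusted p of 0.0368 in limma. The call was near its threshold: with every probe tested in place of every gene, the same values gave an adjusted p of 0.0531, and over the 15 alternatives described below it ran from 0.0114 to 0.702, with 7 calls. In the signals as deposited, before normalization, the groups overlapped, at 1072, 1128 and 1116 in CCR9+ pDCs and 1112, 1004 and 1122 in precursors. The nearest other gene in that direction, Mrpl35, did not pass the limma test (-0.28, adjusted p = 0.0538), although its groups did not overlap after normalization. As deposited, its groups overlapped too, at 246, 260 and 255 in CCR9+ pDCs and 257, 248 and 254 in precursors.

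Among the 28 large subunit genes that were not called, Mrpl3 lay closest to 0. It read 10.34, 10.42 and 10.61 in CCR9+ pDCs and 10.43, 10.49 and 10.47 in precursors, with the groups interleaved and a difference of 0.01 (95% confidence interval -0.24 to 0.25). This holds for the brighter of its 2 probes above background; the other gave 0.41 with the groups apart and was not called either (adjusted p = 0.172 over all probes, limma). Mrpl44, which carries a domain related to ribonuclease III, read 8.47, 7.98 and 8.14 in CCR9+ pDCs and 8.63, 8.48 and 8.45 in precursors. The lowest precursor array lay just below the highest CCR9+ pDC array (0.32, interval -0.02 to 0.67, adjusted p = 0.132). Mrpl58, a peptidyl-tRNA hydrolase built into the ribosome that can release stalled chains, read 7.99, 7.95 and 7.98 in CCR9+ pDCs and 8.18, 8.23 and 7.97 in precursors; precursor replicate 3 fell within the CCR9+ pDC range (0.16, interval -0.09 to 0.40). Mrpl10, which anchors the stalk that holds Mrpl12, had a value within the range of the called genes (0.41, interval 0.02 to 0.80) but an adjusted p of 0.0948, with CCR9+ pDC arrays at 10.92, 10.89 and 10.41. Mrpl55 was the least precise of the subunit, with an interval of -0.21 to 0.98.

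**Figure D2:**
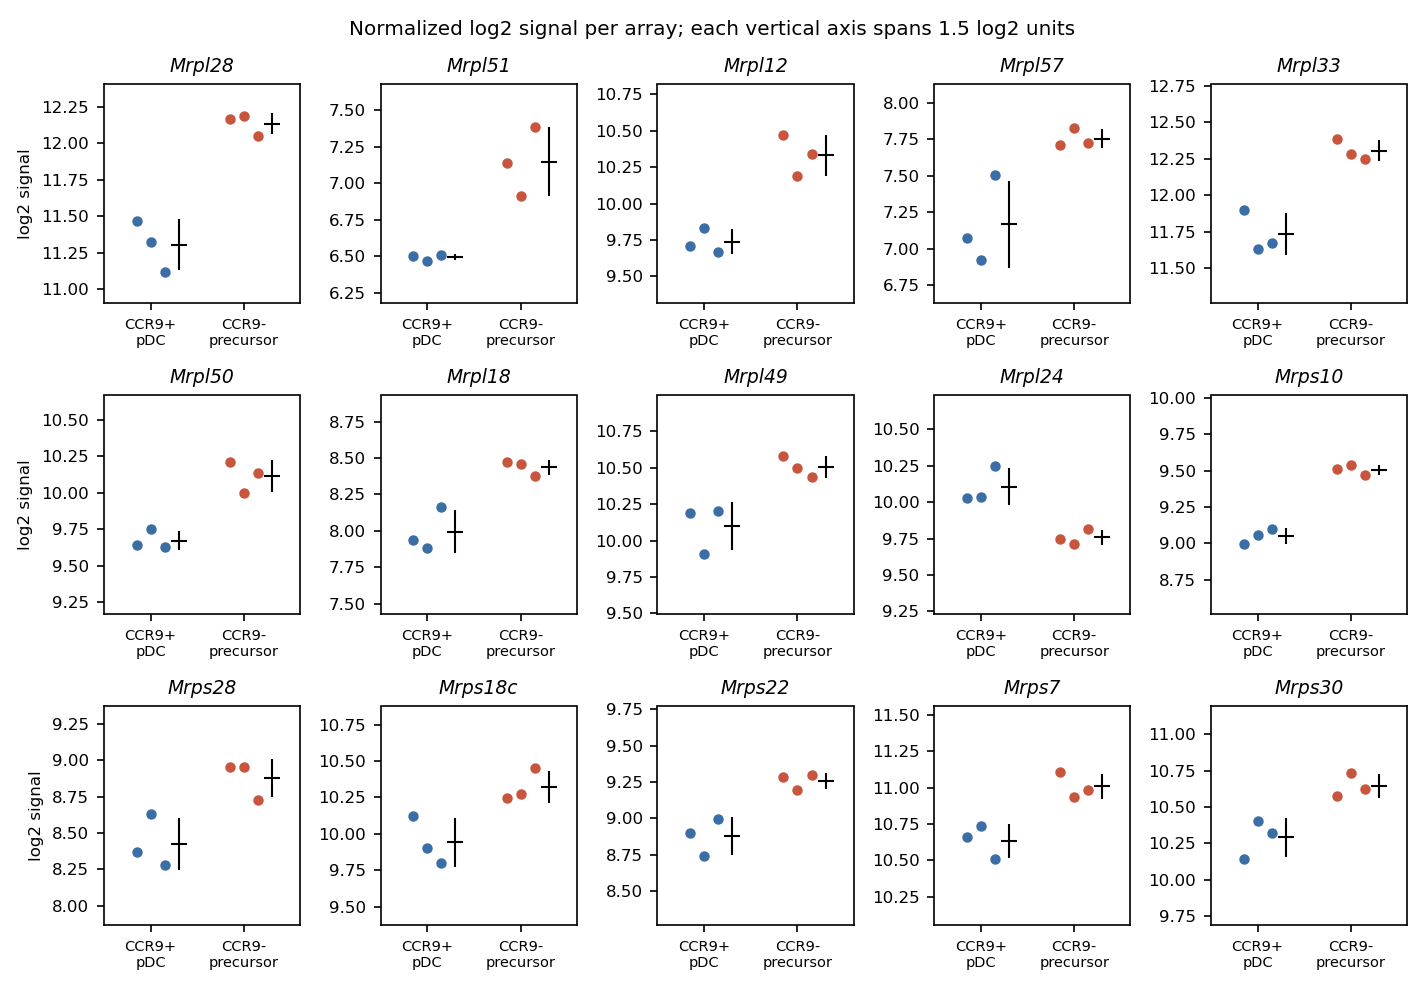
Normalized log2 signal (vertical axis, spanning the same range in every panel) on each array for the 8 large subunit genes with the largest calls, Mrpl24 and the 6 called small subunit genes. Dots are arrays, blue for CCR9+ pDCs and red for precursors, and the black marks give mean ± SD, n = 3; the groups do not overlap in any panel and only Mrpl24 is lower in precursors.

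Small subunit transcripts leaned the same way with fewer calls. Of 27 genes, 6 were called higher (22.2%) and none lower in limma, a share close to the background of 18.2%, so the count of calls alone does not set them apart from other genes. At an unadjusted p below 0.05, 10 were higher (37.0%) and 1 lower, where 23.3% and 21.9% of all genes were. Their median log2 fold change was 0.19 (range -0.32 to 0.45), 23 of 27 values were above 0 (85.2%, against 52.3% of all genes), and the groups stood apart in 13 genes with precursors higher and in 1 with precursors lower, beside the 26.7% and 24.2% of all genes. The difference between the 2 subunits was not tested.

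Mrps10, the homologue of bacterial S10, had log2 signals of 8.995, 9.06 and 9.10 in CCR9+ pDCs and 9.51, 9.54 and 9.47 in precursors. Neither group spread over more than 0.11 log2 units, and the gap between them was wider than either (0.45 ± 0.085, 1.37-fold, adjusted p = 0.00686 in limma). Mrps28, placed at the position of bacterial S1, read 8.37, 8.63 and 8.28 in CCR9+ pDCs and 8.96, 8.96 and 8.73 in precursors. The highest CCR9+ pDC array and the lowest precursor array were separated by 0.099 (0.45 ± 0.13, adjusted p = 0.0331). Mrps22, a mitochondrial addition to the small subunit, read 8.90, 8.74 and 8.996 in CCR9+ pDCs and 9.29, 9.20 and 9.30 in precursors, without overlap (0.38 ± 0.10, adjusted p = 0.0272). Mrps7, the homologue of the S7 protein that starts assembly of the bacterial small subunit head, read 10.66, 10.74 and 10.51 in CCR9+ pDCs and 11.11, 10.94 and 10.98 in precursors. Its groups also stood apart (0.37 ± 0.10, adjusted p = 0.0308).

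Bacterial S18 has 3 mammalian relatives, Mrps18a, Mrps18b and Mrps18c, and structures place Mrps18a in the large subunit despite its name. Mrps18c read 10.12, 9.90 and 9.80 in CCR9+ pDCs and 10.24, 10.27 and 10.45 in precursors and was called higher with an adjusted p of 0.0477, just inside the threshold (0.38 ± 0.12, limma). Mrps18a read 9.35, 9.20 and 9.11 in CCR9+ pDCs and 9.59, 9.60 and 9.34 in precursors (0.29, adjusted p = 0.0997). Mrps18b read 9.997, 9.90 and 9.74 in CCR9+ pDCs and 10.27, 10.07 and 9.98 in precursors (0.23, adjusted p = 0.187). In all 3 relatives the mean was higher in precursors, and the groups overlapped narrowly for Mrps18a and Mrps18b. Mrps30 is a large subunit protein by structure too. It read 10.14, 10.41 and 10.32 in CCR9+ pDCs and 10.58, 10.74 and 10.63 in precursors (0.36 ± 0.11, adjusted p = 0.041), every precursor array above every CCR9+ pDC array. With Mrps18a and Mrps30 counted where structures place them, 16 of 46 large subunit genes and 5 of 25 small subunit genes were called higher. Over all genes tested 18.2% were called higher. The small subunit share by structure was close to this, so that count alone does not set those genes apart from other genes.

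Mrps34, a mitochondrial addition that stabilises the small subunit in mice, pointed the other way. Its values were 11.68, 11.84 and 11.71 in CCR9+ pDCs and 11.51, 11.50 and 11.25 in precursors. No arrays of the groups overlapped after normalization, but limma did not call it (-0.32, interval -0.59 to -0.05, adjusted p = 0.0653). In the signals as deposited its groups overlapped, at 3166, 3718 and 2933 in CCR9+ pDCs and 3442, 3147 and 2780 in precursors. Mrps12, homologue of the S12 protein of the decoding site, read 11.25, 11.29 and 10.96 in CCR9+ pDCs and 11.39, 11.37 and 11.27 in precursors; its lowest precursor array lay below the highest CCR9+ pDC array (0.18, interval -0.10 to 0.46). Mrps24, at the position of bacterial S3, had one of the brightest probes and read 12.21, 12.10 and 11.85 in CCR9+ pDCs and 12.27, 12.19 and 12.05 in precursors, with overlapping groups (0.12, interval -0.18 to 0.42). Mrps17, also among the brightest of the small subunit, read 11.83, 11.77 and 11.79 in CCR9+ pDCs and 12.10, 12.10 and 11.95 in precursors. Its groups did not overlap, and it missed the threshold (0.26, adjusted p = 0.069). Mrps21 was nearest to 0, at 8.99, 8.84 and 9.40 in CCR9+ pDCs and 9.14, 9.004 and 9.06 in precursors, with CCR9+ pDC replicate 3 above all other arrays (-0.01, interval -0.38 to 0.37). Mrps9 (0.35, adjusted p = 0.0547) and Mrps11 (0.44, adjusted p = 0.062) lay just outside the threshold.

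By descent, 14 of 43 bacterial homologues were called higher and 1 lower, with a median of 0.27, and 7 of 28 subunits particular to mitochondria were called higher and none lower, with a median of 0.16, beside 18.2% higher and 17.6% lower over all genes. The share of values above 0 was 86.0% in the first class, 85.7% in the second and 52.3% over all genes. Mrps18a and Mrps18b are in the second class because the nomenclature of structures counts them as mitochondrial additions that do not sit at the S18 position. The difference between the classes was not tested. Proteins of the mitochondrial ribosome that carry other names were looked at beside them. Chchd1 was called higher, at 12.35, 12.36 and 12.12 in CCR9+ pDCs and 12.68, 12.76 and 12.65 in precursors (0.42 ± 0.10, adjusted p = 0.0204), with no overlap, and was not called when any one of the 3 precursor arrays was left out. With the authors' values its difference was 0.26. Dap3, a GTP-binding small subunit protein also named for a role in cell death, read 11.96, 12.01 and 12.02 in CCR9+ pDCs and 12.22, 12.20 and 12.10 in precursors, apart but not called (0.18, adjusted p = 0.159). Ptcd3, an RNA-binding pentatricopeptide repeat protein of the small subunit, read 6.78, 6.65 and 6.23 in CCR9+ pDCs and 7.08, 6.67 and 7.18 in precursors, with overlap (0.42, adjusted p = 0.141). Gadd45gip1 had a value of 0.37 (adjusted p = 0.247).

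Array by array, the members of both subunits sat lower in CCR9+ pDCs. Each gene's value on an array was set against its own mean over the 6 arrays. In the large subunit the median of these deviations was -0.07, -0.11 and -0.10 on the CCR9+ pDC arrays and 0.16, 0.13 and 0.08 on the precursor arrays. In the small subunit it was -0.08, -0.12 and -0.13 against 0.16, 0.10 and 0.03. The medians over all genes tested lay between -0.03 and 0.04. The group order held on every array, and precursor replicate 3 was the nearest to CCR9+ pDCs in both subunits. Replicates also differed little: the median SD within CCR9+ pDCs was 0.11 for large and 0.16 for small subunit genes against 0.18 for all genes, and within precursors it was 0.078 and 0.11 against 0.12. Members were also brighter, with median log2 signals per array of 9.61 to 9.76 (large) and 9.59 to 9.83 (small) against 8.23 to 8.29 for all genes. The median SE of the log2 fold change was 0.105, 0.120 and 0.135 in that order. An equal difference is called more easily at a smaller SE, and the part of this in the called shares was not tested.

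**Figure D3:**
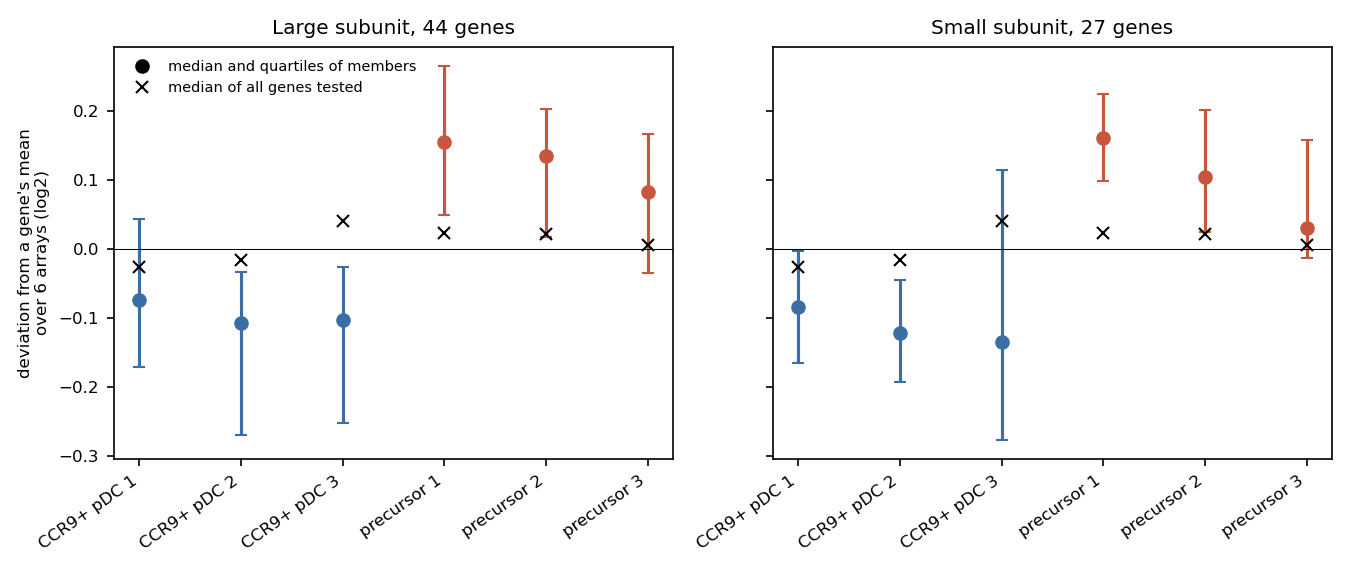
Deviation of each gene from its own mean over the 6 arrays (log2, vertical axis) by array, for 44 large subunit genes (left) and 27 small subunit genes (right). Dots and bars are the median and quartiles over the genes, blue for CCR9+ pDC arrays and red for precursor arrays, and crosses the median over all 9561 genes tested; the 3 precursor medians lie above the 3 CCR9+ pDC medians in both panels.

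The number of calls depended on single arrays much more than the median did. Leaving out precursor replicate 1, 2 or 3 left 5, 6 and 8 large subunit genes and 1, 1 and 3 small subunit genes called higher, and leaving out CCR9+ pDC replicate 1, 2 or 3 left 10, 8 and 14 and 2, 3 and 4. Without precursor replicate 1 the large subunit share of 11.4% was no longer above that of all genes, 12.6%, and without precursor replicate 2 it was 13.6% against 12.6%. The small subunit share was below that of all genes under each omission, at 3.70% to 14.8% against 12.6% to 19.7%. The large subunit median stayed between 0.21 and 0.28 and the small subunit median between 0.16 and 0.24 under these omissions, and Mrpl24 was called under none of them.

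Across 15 alternatives, 9 of processing or model and 6 that left out 1 array each, Mrpl12, Mrpl28, Mrpl33, Mrpl42 and Mrpl51 were called in all 15. Mrps10 was called in 14, losing its call when a gene's probes were averaged (adjusted p = 0.0825 in limma, against a range of 0.0021 to 0.0825 over the 15). Mrpl20 and Mrpl50 were called in 13, Mrpl18 and Mrpl23 in 11, and Mrpl49, Mrpl57, Mrps22 and Mrps28 in 10. Mrpl21 and Mrpl27 were called least often, in 6. None of the 22 called genes changed direction in any of the 15. For most of the 15 this was fixed in advance. The groups of all 22 stood apart, so leaving out 1 array could not reverse a direction. A replicate block or a trended, robust prior leaves the log2 fold changes as they were, and the filters reuse the same normalized values. Sizes did move: Mrpl51 fell to 0.31 without background correction and 0.28 with the authors' values, Mrpl57 to 0.34 and 0.32, and Mrpl23 to 0.26 with the authors' values, while median scaling raised most called values along with the median of all genes. Outside the called genes, Mrps9 gained a call in 6, Mrps11 in 5 and Mrps34 in 5, the last as lower in precursors.

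**Figure D4:**
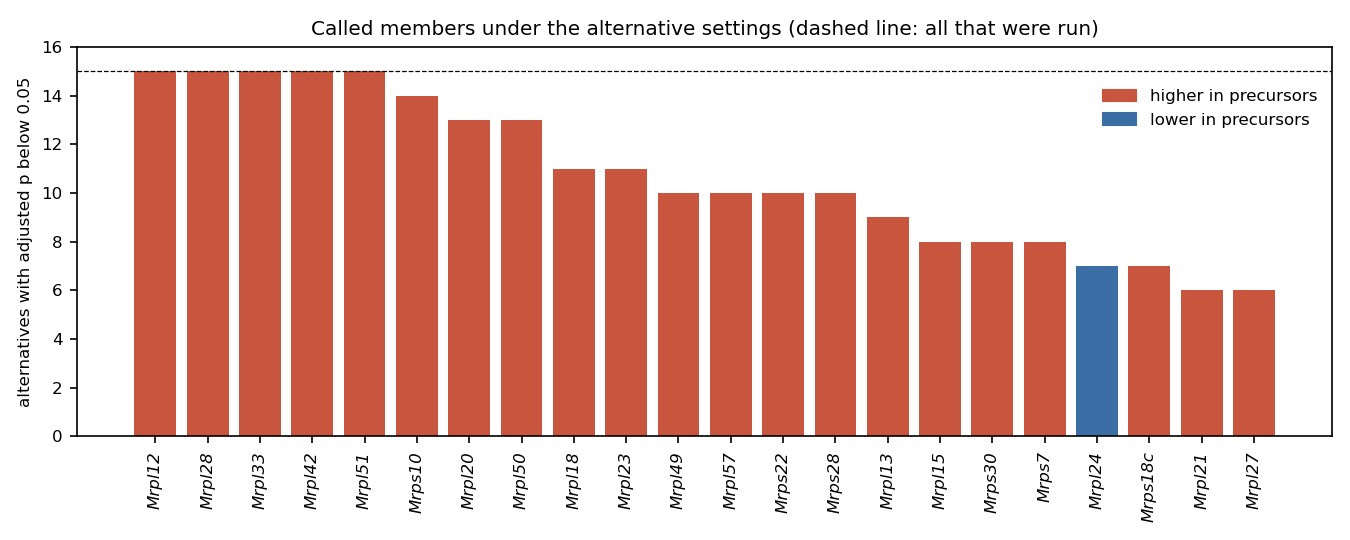
Number of the 15 alternatives (vertical axis, from 0) in which each of the 22 called genes passed an adjusted p below 0.05, red for genes higher and blue for the gene lower in precursors. Mrpl12, Mrpl28, Mrpl33, Mrpl42 and Mrpl51 reach the dashed line at 15, and Mrpl21 and Mrpl27 stand at 6.

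Several genes were read by more than 1 probe. Of the 132 probes, 103 were above background on 3 or more arrays. In a fit over all such probes on the array, 18 of 62 large subunit probes and 7 of 41 small subunit probes were called higher and none lower, where 15.6% of all probes were higher and 13.7% lower. Of 22 genes with several such probes, none had calls in opposite directions and 14 had no probe called. Both probes of Mrpl33 (0.57 and 0.61) and both of Mrps7 (0.37 and 0.53) were called. In 6 genes probes were split between called and not called. The split was widest in Mrpl49, whose 4 probes gave log2 fold changes between 0.02 and 1.16 with 3 called, and in Mrpl15, whose 5 probes gave 0.29 to 0.82 with 3 called. The probe that stood for Mrpl15 among the genes was not called in this fit (adjusted p = 0.0607, limma). A called Mrpl15 probe (0.60) was above background on 0 CCR9+ pDC and 3 precursor arrays. The Mrpl49 probes at 1.16 and 0.69 were so on 1 and 3. These 3 probes, among the 18 called, passed the filter through the precursors, so their calls add no support. Mrps18b and Mrps25 each had 1 called probe (0.48 and 0.42) beside the brighter one used for the gene, which was not called. Mrpl48 was the only gene with probes on both sides of 0, from -0.05 to 0.12.

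Without normalization, groups of the deposited signals stood apart with precursors higher in 37 of 44 large and 20 of 27 small subunit genes, and with precursors lower in none. On that scale 44% of all genes stood apart with precursors higher and 12.5% with precursors lower.

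Genes that build and serve the mitochondrial ribosome were read against the same background of 18.2% higher and 17.6% lower. Of 21 assembly and ribosomal RNA modification factors, 3 were higher and 1 lower (median 0.04). Tfb1m, which dimethylates the small ribosomal RNA, read 6.74, 6.97 and 7.05 in CCR9+ pDCs and 7.70, 7.74 and 7.70 in precursors (0.79 ± 0.11, adjusted p = 0.00167, limma). No array of one group reached the other. Without background correction its value was 0.44 and with the authors' values 0.42, still called. The assembly GTPases Noa1 (0.37) and Gtpbp10 (0.43) were higher as well, Noa1 not without CCR9+ pDC replicate 2 or precursor replicate 1 or 2. Gtpbp10 kept its call in only 5 of the 15 alternatives and its value fell to 0.18 without background correction and 0.16 with the authors' values. Mterf3, which acts in large subunit assembly in mice, was lower (-0.37, adjusted p = 0.0253), with a value of -0.12 and no call under median scaling (adjusted p = 0.563) and calls in 10 of 15 alternatives, whose adjusted p ran from 0.00526 to 0.563.

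Among 16 mitochondrial translation factors only the ribosome recycling factor Mrrf was called (0.56 ± 0.12, adjusted p = 0.0129; median of the list 0.16), with a value of 0.23 without background correction and 0.20 with the authors' values, and no call without precursor replicate 2. Of 18 aminoacyl-tRNA synthetases, Gars (0.53), which serves both cytosol and mitochondria, and Fars2 (0.43) were higher and Ears2 (-0.41) was lower. Gars and Fars2 were called in all 15 alternatives, Gars at 0.33 with the authors' values. Ears2 was called in 10, and not under median scaling (-0.17), with the replicate block, or without CCR9+ pDC replicate 2 or precursor replicate 1 or 3; its adjusted p ran from 0.0105 to 0.464. Of 13 genes of mitochondrial transcription and RNA processing, 2 were higher and none lower with a median of 0.01. Rexo2, an oligoribonuclease, read 8.88, 8.90 and 8.75 in CCR9+ pDCs and 9.95, 9.77 and 10.13 in precursors (1.10 ± 0.12, 2.15-fold, adjusted p = 0.000563), and Trmt10c, a subunit of mitochondrial ribonuclease P, differed by 0.48 and was not called without CCR9+ pDC replicate 1 or precursor replicate 1 or 2, and it was 0.30 with the authors' values. The precursor arrays of Rexo2 stood at least 0.87 log2 units above the CCR9+ pDC arrays.

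Of 7 nuclear regulators tested, Nrf1, a transcription factor of many mitochondrial genes, read 10.24, 10.30 and 10.19 in CCR9+ pDCs and 10.80, 10.87 and 10.77 in precursors (0.57 ± 0.087, adjusted p = 0.00269). Its groups were tight and well apart. The coactivator Pprc1 was higher (0.43) and the nuclear receptor Esrra lower (-0.39, adjusted p = 0.025). Nrf1 was called in all 15 alternatives, Pprc1 in 11 and Esrra in 9. The calls of Pprc1 were lost without replicate 1 or 2 of either group, and those of Esrra under median scaling (-0.13), with the mean of probes (-0.30) and without replicate 1 or 2 of the CCR9+ pDCs or 1 or 3 of the precursors, its adjusted p running from 0.00736 to 0.595. For scale, 22 of 62 nuclear subunits of oxidative phosphorylation were higher and none lower (median 0.27), with Atp5o at 0.66. That count was 8, 9 and 12 without precursor replicate 1, 2 or 3, 11 without CCR9+ pDC replicate 2 and 8 to 31 over the 15 alternatives, with none lower in any. Of 52 cytosolic ribosomal proteins, 5 were higher and 1 lower (median 0.07), with Rpl21 at 0.54 and Rpl3l at -1.34, the latter not called without CCR9+ pDC replicate 2 or precursor replicate 1 or 2. Their counts ran from 1 higher and 0 lower without precursor replicate 1 to 13 higher without background correction or with a trended, robust prior, and the authors' processed values gave 6 higher and 10 lower, so the balance of this list turned with the processing. Several cytosolic ribosomal protein genes have near-identical copies that a probe may not separate. No difference between lists was tested.

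**Figure D5:**
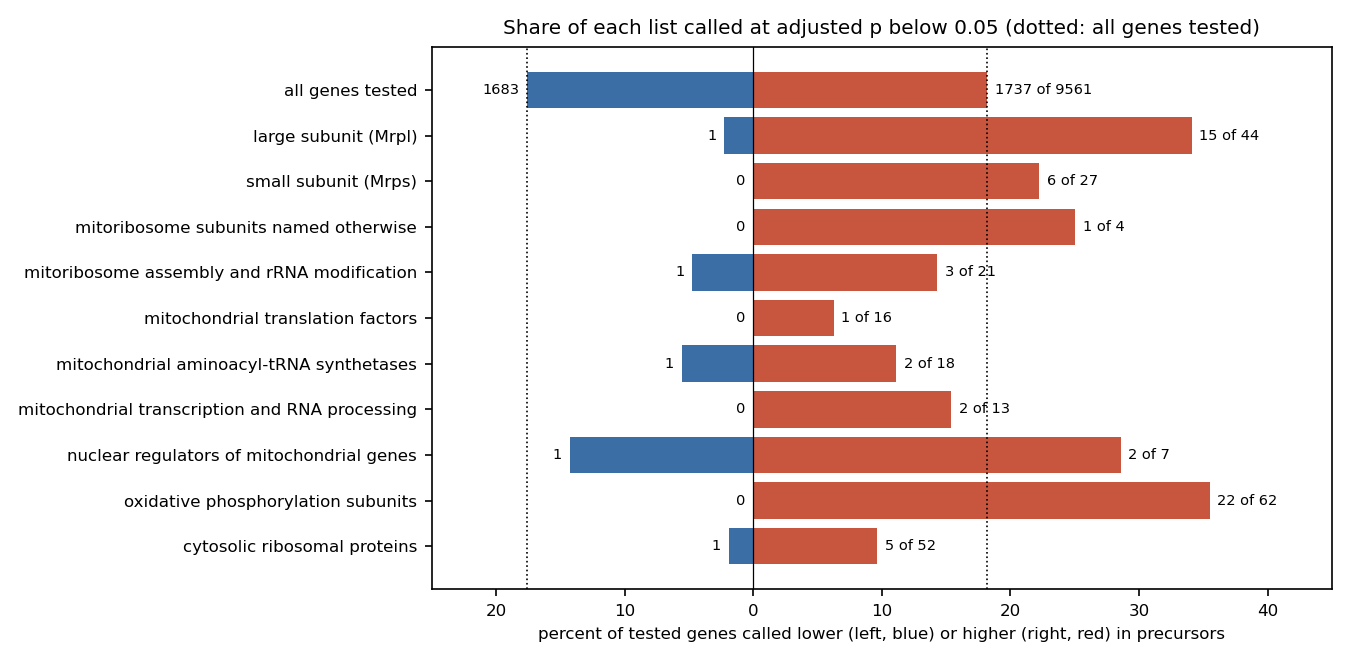
Percent of the tested genes of each list called higher (red, to the right) or lower (blue, to the left) in precursors at an adjusted p below 0.05, with the number called and tested beside each bar. Dotted lines mark the shares over all 9561 genes tested, 18.2% higher and 17.6% lower; the large subunit bar reaches 34.1% and the small subunit bar 22.2%.

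Promoters of these genes were compared because most members had values in the same direction. RefSeq windows of 300 bases, 250 before and 50 after the start of the gene (build GRCm38.p6), were matched for 67 of the 76 genes. They were searched on both strands for CGCATGCG, the core of the site known for NRF1, for CCGGAAG, a core of ETS family sites, and for AAGATGGC, a core of YY1 sites. A gene was counted if any of its windows held the motif, and 3 members had more than 1 window. The motifs were held by 7, 26 and 12 of the 67 genes. These shares were 10.4%, 38.8% and 17.9%, against 2.07%, 9.93% and 3.19% of all 27025 genes with a window. At least 1 of them was held by 38 genes (56.7%, against 14.1% of all genes). Within the members the share was 11 of 18 genes called higher (61.1%) and 25 of 44 tested and not called (56.8%); the NRF1 core was in 0 of the 18 and 5 of the 44. A match says only that these letters are in the window. The 27025 genes are all those with a window, whether or not they were above background on these arrays. The shares over the 9561 genes tested, the background used elsewhere here, were not counted. An excess particular to these genes is therefore not shown.

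Shown here are the windows of the 5 genes called in all 15 alternatives and of Mrpl24, the gene called lower. Capitals mark a motif, an ETS core in Mrpl33 and Mrpl51 and a YY1 core in Mrpl42, each on the strand shown; Mrpl28, Mrpl12 and Mrpl24 hold none of the 3. The windows are chr5:31613701-31614000 on the plus strand for Mrpl33, chr6:125191950-125192249 plus for Mrpl51, chr10:95501900-95502199 minus for Mrpl42, chr17:26123253-26123552 plus for Mrpl28, chr11:120484387-120484686 plus for Mrpl12 and chr3:87919294-87919593 plus for Mrpl24, written 5′ to 3′.
Mrpl33: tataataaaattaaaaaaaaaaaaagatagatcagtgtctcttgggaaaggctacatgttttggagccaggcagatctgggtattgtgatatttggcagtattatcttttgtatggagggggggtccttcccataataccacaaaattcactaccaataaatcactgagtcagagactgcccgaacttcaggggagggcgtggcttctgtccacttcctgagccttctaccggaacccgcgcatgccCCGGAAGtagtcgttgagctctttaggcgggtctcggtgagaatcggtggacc
Mrpl51: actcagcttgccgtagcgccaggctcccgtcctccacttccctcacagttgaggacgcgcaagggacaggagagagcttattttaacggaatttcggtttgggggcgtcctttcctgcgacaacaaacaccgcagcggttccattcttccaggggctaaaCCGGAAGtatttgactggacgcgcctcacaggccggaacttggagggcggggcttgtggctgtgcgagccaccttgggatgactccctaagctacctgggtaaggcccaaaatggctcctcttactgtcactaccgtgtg
Mrpl42: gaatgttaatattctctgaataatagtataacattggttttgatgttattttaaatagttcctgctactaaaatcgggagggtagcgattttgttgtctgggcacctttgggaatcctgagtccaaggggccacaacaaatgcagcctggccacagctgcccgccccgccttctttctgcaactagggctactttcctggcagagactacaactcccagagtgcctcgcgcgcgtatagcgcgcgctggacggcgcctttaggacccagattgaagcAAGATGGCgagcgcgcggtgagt
Mrpl28: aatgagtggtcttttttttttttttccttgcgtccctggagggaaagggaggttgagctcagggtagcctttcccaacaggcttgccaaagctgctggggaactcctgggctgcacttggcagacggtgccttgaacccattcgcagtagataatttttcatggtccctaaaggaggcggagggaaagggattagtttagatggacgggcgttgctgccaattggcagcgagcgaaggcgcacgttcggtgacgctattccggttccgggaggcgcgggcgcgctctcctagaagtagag
Mrpl12: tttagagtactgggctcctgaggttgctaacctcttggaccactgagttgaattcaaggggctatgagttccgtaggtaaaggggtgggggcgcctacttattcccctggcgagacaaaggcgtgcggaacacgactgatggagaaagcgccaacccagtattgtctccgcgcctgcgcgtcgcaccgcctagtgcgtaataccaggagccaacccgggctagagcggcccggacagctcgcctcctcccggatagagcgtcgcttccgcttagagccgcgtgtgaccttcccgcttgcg
Mrpl24: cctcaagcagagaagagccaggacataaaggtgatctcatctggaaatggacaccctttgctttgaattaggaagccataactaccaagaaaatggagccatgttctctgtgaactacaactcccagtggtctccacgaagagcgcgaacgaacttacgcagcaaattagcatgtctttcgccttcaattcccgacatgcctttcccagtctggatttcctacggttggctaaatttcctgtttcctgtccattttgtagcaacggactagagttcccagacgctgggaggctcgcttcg
Mrpl28 (log2 fold change 0.83), Mrpl12 (0.60) and the gene called lower, Mrpl24 (-0.35), had none of these letters. The 3 genes that had them lay at 0.66, 0.57 and 0.39. These genes were chosen by their calls, so no relation of motif and fold change can be read from them.

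The 5 genes that were not tested were Mrpl19, Mrpl32, Mrpl39 and Mrpl45 of the large and Mrps14 of the small subunit. Only Mrpl39 was above background at all, on 1 array with a detection p of 0.0353. The lowest detection p of the others was 0.172, for Mrpl45. Of the 71 tested genes, 70 were above background on all 6 arrays; Mrps27 was so on 2 arrays of each group, and its value had the widest interval (-0.60 to 0.80).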

How the data were processed

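Total RNA of 3 CCR9+ pDC and 3 precursor isolations was hybridised to Illumina bead arrays. The deposited table holds non-normalized average intensities and detection p-values for 45281 probes, and per the submitters' processing notes BeadStudio and lumi were used. Further steps behind the deposited p-values and intensities are not given in these sources. The authors' processed values, whose intensity scale and normalization are not stated, served as an alternative. Intensities were background corrected from the detection p-values (limma 3.58.1 in R 4.3.3, offset 16), quantile normalized and taken to log2. Probes with a detection p below 0.05 on 3 or more of 6 arrays were kept (16857), and each gene was represented by its brightest kept probe. Of 45281 probes, 34885 had 1 gene symbol, 18 several and 10378 none in the platform annotation.

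Groups were compared with limma's lmFit and eBayes (residual df 4, prior df 2.63), with Benjamini-Hochberg adjustment over all genes and a threshold of 0.05; the same fit was run over all kept probes. Intervals are 95%, fold changes come from background-corrected values, and 3 arrays a group limit the precision. Fold changes of dim genes may still be understated, which was not tested. Without this correction those of Mrpl51 and Mrpl57 were smaller. Array values were given for the called genes with the largest changes (8 large, 6 small), the one called lower, the brightest 3 and the uncalled gene nearest 0 of each subunit, and fixed genes such as Mrpl12, Mrps34 and Dap3; Mrpl42, Mrpl10, Mrpl35, Mrpl55, Mrps9 and Mrps11 were added after their values were seen. The members and gene lists were chosen with earlier results of these data known. Classes by descent and structure, and all lists, come from general knowledge. The overlap of groups in the signals as deposited was looked at after the data had been seen. The code was tested on simulated data. Same-numbered arrays correlated in their deviations from the group means at 0.35, 0.044 and 0.24, and arrays of unlike number at -0.30 to 0.063. The labels do not say that a number marks a shared isolation, so the block was run as an alternative only. These correlations do not exclude a pairing. Promoter windows are RefSeq's; 9 members had none there.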

Additional observations from a re-analysis of the deposited data

How the results depend on the processing

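No called gene changed direction under any of the 15 alternatives, though most of them, such as leaving out 1 array, could not have changed it. The large subunit count of 15 genes higher was 11 to 17 over the 9 alternatives of processing and model and 5 to 14 with 1 array left out. As shares these were 22.9% to 38.6%, where 7.97% to 22.4% of all genes were higher, and 11.4% to 31.8%, where 12.6% to 19.7% were. For the small subunit they were 7.14% against 7.97% without a filter on dim probes, and 3.70% to 14.8% with 1 array left out. The large subunit count lower was 2 with the authors' processed values, with cyclic loess and with detection on all arrays at 0.01, 0 under median scaling and without a filter on dim probes, and 0 with any array left out. The small subunit count of 6 higher was 2 without the filter, 9 without background correction, under median scaling and with detection on all arrays, 8 with the mean of probes, and 1 to 4 with 1 array left out; its count lower was 1 without background correction, with the authors' values, cyclic loess, detection on all arrays and a trended robust prior (Mrps34), and 0 with any array left out. The large subunit median was 0.16 with the authors' values, 0.18 without background correction, 0.50 under median scaling, 0.20 without the filter and 0.21 to 0.28 with 1 array left out. The small subunit median was 0.10 with the authors' values, 0.44 under median scaling, 0.25 with the mean of probes and 0.16 to 0.24 with 1 array left out. Values near 0 changed sign: Mrpl3 was -0.059 with the authors' values, -0.034 with cyclic loess, 0.25 under median scaling, 0.21 with the mean of probes and -0.051 to 0.085 with 1 array left out; Mrps21 was 0.24 under median scaling and -0.13 to 0.16 with 1 array left out; Mrps24 was -0.0092 with the authors' values. With the replicate number as a block (replicate block), 13 large and 5 small subunit genes were higher; Mrpl15, Mrpl21, Mrpl27, Mrps18c and Mrps7 lost their call and Mrpl10 and Mrps11 gained one. CCR9+ pDC replicates 1 and 3 correlated best with the precursor array of their own number (0.35 and 0.24). CCR9+ pDC replicate 2 correlated best with precursor replicate 1 (0.063, against 0.044 for precursor replicate 2). The unfiltered fit tests 19057 genes. The cause of these changes was not tested for any alternative, the unfiltered fit included. Genes at background on some arrays, such as Mrps27, or on most, such as Mrpl39, are limited by signal over background.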
